A study of Mus musculus with 8 samples.

Results

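The RNAs described here were the RefSeq noncoding transcripts (NR_ accessions) whose probes gave signal in mouse liver. They were selected on measured detection: a probe was kept when one genotype or both had its spot marked well above background in all 4 mice, and the *Meg3*, *Rian* and *Mirg* transcripts were left out. The rule kept 764 of the 2477 NR_ probes on the array, for 672 named genes plus 41 probes whose accession matched no symbol, among 56605 probes in all. Livers came from male C57BL/6 mice of 10 weeks, 4 *Agpat3* WT and 4 *Agpat3* KO mice lacking the gene in the whole animal, and total RNA of each frozen liver was labelled with Cy3 and hybridised to its own array. AGPAT3 is an acyltransferase that places docosahexaenoic acid into phosphatidic acid, the precursor of membrane phospholipids, and the arrays compared liver transcripts with and without it. Whether mice were littermates is not given in the sources used here, and *Agpat3* was missing in every tissue, so an effect arising in the liver cannot be told apart from one arising elsewhere.

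Noncoding RNAs fall into groups with different work in the cell. Small nucleolar and small nuclear RNAs guide RNA modification and splicing, and the RNA parts of RNase P, RNase MRP and the signal recognition particle belong to ribonucleoproteins of RNA processing and protein targeting. Long noncoding RNAs are transcribed much like mRNAs, often beside or antisense to a coding gene, and for most of them no function is known. Some serve as hosts whose introns release snoRNAs or microRNAs.

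Promoters are shown for 4 genes: 3 whose higher signal held in every refit below, and *Snhg1*, the snoRNA host that was lower. Of their promoters only those holding a searched motif are printed, and 3 others, of *1810053B23Rik* and *1810008I18Rik*, held none. Each runs 5′ to 3′ from 250 bases before to 50 bases after a RefSeq start (build GRCm38.p6), and capitals mark an E-box (CACGTG, the same on both strands) or a TATA box (TATAAA, or TTTATA when read on the other strand).
1810008I18Rik, chr7:65802787-65803086, plus strand: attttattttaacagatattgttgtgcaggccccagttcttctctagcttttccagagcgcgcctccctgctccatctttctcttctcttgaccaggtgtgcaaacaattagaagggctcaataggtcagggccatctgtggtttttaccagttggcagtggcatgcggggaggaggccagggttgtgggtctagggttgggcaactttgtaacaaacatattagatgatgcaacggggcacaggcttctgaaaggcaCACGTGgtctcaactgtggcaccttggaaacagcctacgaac
3110045C21Rik, chr1:169969159-169969458, plus strand: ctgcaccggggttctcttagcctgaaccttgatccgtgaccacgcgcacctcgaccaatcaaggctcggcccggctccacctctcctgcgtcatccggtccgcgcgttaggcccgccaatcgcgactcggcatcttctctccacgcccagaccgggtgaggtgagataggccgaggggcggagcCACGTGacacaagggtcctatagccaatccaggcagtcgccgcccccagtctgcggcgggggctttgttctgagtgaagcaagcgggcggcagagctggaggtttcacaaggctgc
1810053B23Rik, chr16:93353140-93353439, minus strand: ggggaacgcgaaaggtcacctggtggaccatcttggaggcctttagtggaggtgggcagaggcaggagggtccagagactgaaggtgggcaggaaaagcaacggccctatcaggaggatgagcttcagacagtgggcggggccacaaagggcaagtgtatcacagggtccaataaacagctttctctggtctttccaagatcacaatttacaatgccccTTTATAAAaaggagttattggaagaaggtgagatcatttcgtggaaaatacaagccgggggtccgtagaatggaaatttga
1810053B23Rik, chr16:93359462-93359761, minus strand: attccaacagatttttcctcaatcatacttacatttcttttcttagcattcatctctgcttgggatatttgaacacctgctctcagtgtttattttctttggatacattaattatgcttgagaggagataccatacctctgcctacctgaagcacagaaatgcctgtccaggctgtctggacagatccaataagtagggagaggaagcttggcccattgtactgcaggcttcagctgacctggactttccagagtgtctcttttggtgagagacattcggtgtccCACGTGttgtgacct
Snhg1, chr19:8723237-8723536, plus strand: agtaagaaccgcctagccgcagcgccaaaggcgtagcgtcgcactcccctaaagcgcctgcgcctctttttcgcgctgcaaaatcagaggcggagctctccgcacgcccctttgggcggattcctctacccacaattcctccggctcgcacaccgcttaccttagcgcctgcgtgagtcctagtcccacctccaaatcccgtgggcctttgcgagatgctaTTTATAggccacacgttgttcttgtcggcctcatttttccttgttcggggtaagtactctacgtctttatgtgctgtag
In the first *1810053B23Rik* promoter the capitals cover matches on both strands that overlap. The table held 17 promoters of 13 of the called genes. They are not all separate, since *1810053B23Rik* has several and some of these overlap. An E-box stood in 3 of them (17.6%, against 11.4% of the 482 promoters of members and 7.15% of all 32851 promoters). A TATA box stood in 3 (17.6%, against 11.2% and 13.6%). The sterol regulatory element form TCACNCCAC, searched on both strands because the study examined SREBP1, was in 0 of 17, against 1.24% of the promoters of members and of all promoters.

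Values below are log2 signals on a scale where each array's own 75th percentile is 0. The libraries carried their labels: *Agpat3* read 5.65, 5.66, 5.80 and 5.88 with the gene intact and -0.48, 0.02, -0.58 and -0.47 in KO livers, a difference of -6.12 (SE 0.14, limma adjusted p = 4.46e-07). All 8 hepatocyte markers were well above background on all 8 arrays, with a summed relative signal of 6004 to 6706 in WT and 5983 to 6357 in KO livers. Of the marker lists for other liver cells, 1 gene of the Kupffer cell and leukocyte list, the macrophage receptor *Marco*, passed the call. That list summed to 35.9 to 53.6 in WT and 28.5 to 44.0 in KO livers. The 8 arrays shared 1 slide, WT in row 1 and KO in row 2, so genotype cannot be told apart from slide row. In bulk liver, fewer cells of a type and less RNA per cell cannot be told apart either.

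Noncoding RNAs were dim. Their median signal was -1.29, against 0.64 for probes with NM_ (mRNA) accessions and -1.70 for the intergenic lincRNA interval probes. By class the median was -1.54 for long noncoding RNAs and -0.63 for noncoding transcripts of coding genes. It was 0.21 for unmatched probes, 0.51 for pseudogenes and 0.99 for small and structural RNAs, beside -0.13 over all tested probes. Spread between WT mice was also wider for the whole set, with a median SD of 0.198 against 0.159 over all 29068 probes tested. It was 0.217 for long noncoding RNAs, 0.202 for unmatched probes, 0.161 for pseudogenes, 0.153 for transcripts of coding genes and 0.128 for small and structural RNAs. Of the 764 probes, 700 were well above background on all 8 arrays, 40 on all WT arrays but fewer than 4 KO arrays, and 24 the other way round. At the lower edge of detection lay *Gm4971* (-4.00, -3.76, -3.90 and -3.76 across WT livers and -4.70, -3.58, -5.08 and -5.07 across KO livers) and *1700010I02Rik*, whose KO replicate 1 spot was dropped as an outlier. The difference of *1700010I02Rik* was -0.51 and ran from -0.69 to 0.74 over the refits described below. Just outside the rule, *C730036E19Rik* (mean -3.39) was above background on 3 arrays of each genotype and *Gm16845* (mean -3.49) on 2 of each.

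The brightest noncoding RNAs were not called. The unmatched probe NR_003278 read 11.13, 11.02, 10.90 and 11.04 in WT and 11.04, 11.01, 10.94 and 10.96 in KO livers. *Rn28s1*, the large ribosomal RNA, had means of 9.46 in WT and 9.26 in KO, *Rn4.5s* 9.15 and 9.07, and *Gm20751* 8.81 and 8.67. The pseudogene *Gm5523* differed by -0.03 (SE 0.07, adjusted p = 0.87).

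*Agpat3* KO livers differed from WT at 19 noncoding RNA probes, of 18 transcripts, 10 higher and 9 lower. Calls required more than a 1.5-fold difference together with a Benjamini-Hochberg adjusted p under 0.2, from limma fitted over all 29068 tested probes. With an unadjusted p in its place, 17 members were higher and 16 lower. The 19 were 2.49% of the members, beside 1.67% of all tested probes. Higher calls were 0.939% and lower calls 0.726% of all probes tested. Among members well above background on all 8 arrays 12 of 700 (1.71%) were called, against 1.24% of all such probes. Another 7 were among the 64 members that passed detection in 1 genotype alone. That filter favours, though it does not require, a difference in level, so their share says nothing further. At an adjusted p under 0.05 there were 5 called members, beside 0.403% of all probes tested. WT and KO mice did not overlap at 79 members (10.3%), near the 8.86% over all tested probes. The median log2 fold change of the members was -0.01 and that of all tested probes -0.03.

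**Figure D1:**
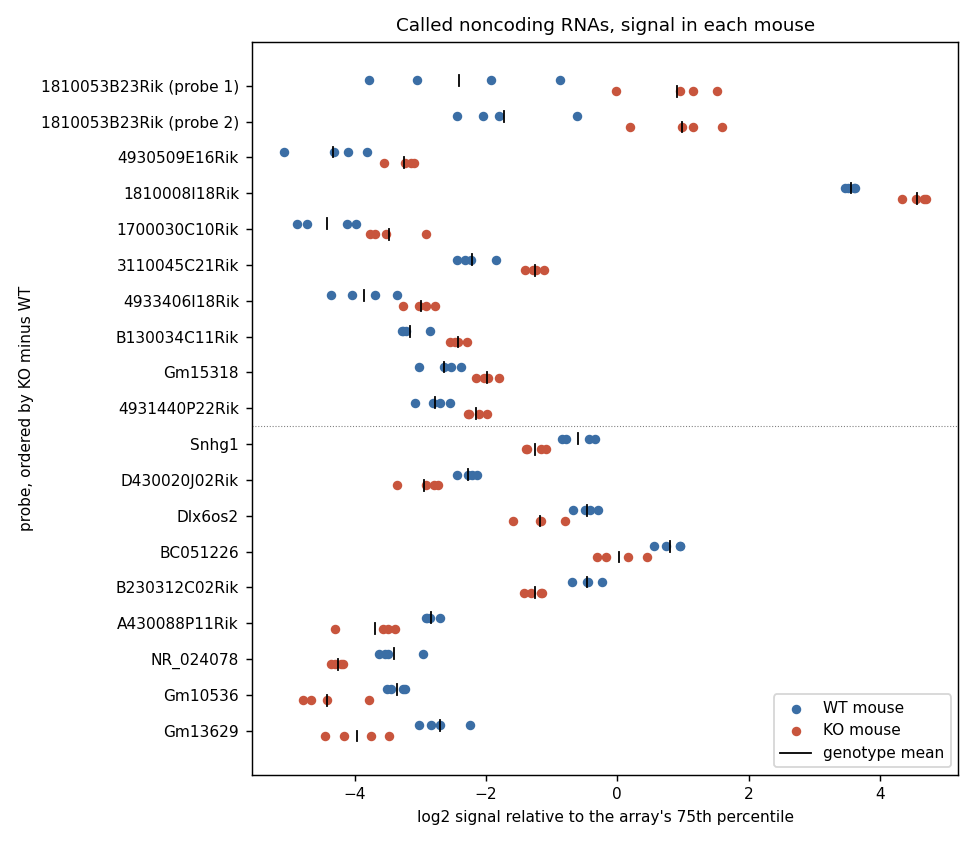
Signal of the 19 called probes in each mouse, in log2 with each array's 75th percentile at 0 (x axis), with WT mice in blue, KO mice in red and black ticks at the genotype means. No probe had overlapping genotypes, and 1810008I18Rik was the brightest at 3.47 to 3.62 in WT and 4.34 to 4.71 in KO livers.

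Among the RNAs that rose, *1810053B23Rik* (NR_040491, chromosome 16) changed most, and both of its probes showed it. Its first probe read -3.79, -3.06, -1.93 and -0.88 across WT livers and -0.02, 1.53, 0.95 and 1.16 across KO livers. Its second probe read -2.44, -2.05, -1.80 and -0.62 across WT livers and 0.20, 1.60, 0.99 and 1.15 across KO livers. Both probes ranked the 4 WT mice alike, which were spread widely, and the genotypes did not overlap. The differences were 3.31 (SE 0.61, adjusted p = 0.0765) and 2.71 (SE 0.42, adjusted p = 0.0443), or 9.95- and 6.53-fold. With normexp background correction of the median spot signal they were smaller, 2.17 and 2.08, and still called. Normexp here added an offset of 50 before the log, which shrinks the log2 differences of dim probes toward 0. Its nearest coding gene, *Setd4*, lay more than 100 kb away and differed by 0.30 (adjusted p = 0.683).

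*1810008I18Rik* (NR_045301, chromosome 7) was the brightest called member. It read 3.61, 3.62, 3.47 and 3.51 across WT livers and 4.71, 4.55, 4.67 and 4.34 across KO livers. The spread within each genotype was small beside the 2.02-fold difference of 1.01 (SE 0.09, adjusted p = 0.0062). *Pcsk6*, the nearest coding gene and within 100 kb on the same strand, differed by -0.10 (adjusted p = 0.679).

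*3110045C21Rik* (NR_040438, chromosome 1) read -2.43, -1.85, -2.32 and -2.23 across WT livers and -1.24, -1.28, -1.11 and -1.41 across KO livers. It was higher by 0.95 (SE 0.13, adjusted p = 0.0303), 1.93-fold, with no overlap between the genotypes. This RNA overlaps *Ddr2*, a collagen receptor gene on the opposite strand, which differed by -0.15 (adjusted p = 0.618). Within 10 kb on the opposite strand lies *Hsd17b7*, an enzyme of cholesterol synthesis, at 0.53 (adjusted p = 0.207), which was not called.

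Further RNAs higher in KO livers were dimmer. *B130034C11Rik* read -3.22, -3.27, -2.86 and -3.29 across WT livers and -2.28, -2.47, -2.43 and -2.54 across KO livers, a difference of 0.73 (SE 0.11, adjusted p = 0.0433). Its neighbour *Cct8*, a chaperonin subunit gene within 10 kb on the other strand, differed by 0.01 (adjusted p = 0.967). *Gm15318* read -3.02, -2.37, -2.64 and -2.54 across WT livers and -2.16, -1.97, -1.81 and -2.03 across KO livers. That difference was 0.65 (SE 0.14, adjusted p = 0.11), and a second probe, for another transcript of the gene, gave 0.41 (adjusted p = 0.406) and was not called. *4931440P22Rik* read -2.70, -2.80, -3.08 and -2.55 across WT livers and -2.26, -2.10, -1.98 and -2.28 across KO livers, higher by 0.63 (SE 0.12, adjusted p = 0.088). It overlaps *Tiparp*, an ADP-ribosyltransferase gene induced by the aryl hydrocarbon receptor, which differed by 0.57 (adjusted p = 0.294).

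The remaining 3 were near background in WT livers. *4930509E16Rik* was well above background on 2 WT arrays and all KO arrays, and read -5.08, -4.10, -3.81 and -4.31 across WT livers and -3.23, -3.56, -3.15 and -3.09 across KO livers. Its difference was 1.07 (SE 0.25, adjusted p = 0.132). Its readings in WT replicates 1 and 4 lay below the dimmest detected signals of those arrays, -4.21 and -4.09, so the difference is not exact. *4933406I18Rik* was likewise above background on 2 WT arrays, at -4.36, -3.35, -3.69 and -4.04 across WT livers and -3.02, -3.26, -2.91 and -2.78 across KO livers, and differed by 0.87 (SE 0.21, adjusted p = 0.143). Its reading in WT replicate 1 also lay below the dimmest detected signal of that array, and its other probe was above background on no array. *1700030C10Rik* was well above background on 0 WT arrays. Its measured means were -4.43 in WT and -3.47 in KO livers (limma adjusted p = 0.172). With dim WT readings raised as described below, it was 1.69-fold higher in KO livers. These 3 RNAs passed detection through KO livers alone, and with normexp their differences were 0.32, 0.21 and 0.20, none of them called. The 1.69-fold value sets the KO mean against a raised WT mean. For each WT array, that mean took the probe's own reading or the dimmest detected signal of the array, whichever was higher. The dimmest signal came from any probe, so the value is not a strict minimum. *1700030C10Rik* read -3.98 in WT replicate 1, above the -4.21 of that array, yet was not well above background there.

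Of the RNAs that fell, 5 were well above background on every array. *B230312C02Rik* (NR_040745, chromosome 2) read -0.46, -0.45, -0.69 and -0.23 across WT livers and -1.14, -1.31, -1.42 and -1.17 across KO livers. The genotypes were apart, with a difference of -0.80 (SE 0.11, adjusted p = 0.0324), the smallest adjusted p among the lower RNAs. *Gata5*, a GATA transcription factor gene within 100 kb, differed by -0.10 (adjusted p = 0.674).

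*BC051226* (NR_045146, chromosome 17) read 0.96, 0.95, 0.75 and 0.57 across WT livers and 0.17, -0.17, 0.45 and -0.31 across KO livers, a difference of -0.77 (SE 0.18, adjusted p = 0.121). It lies within 10 kb of *Daxx*, a histone chaperone gene on the opposite strand, which differed by -0.20 (adjusted p = 0.298). *Dlx6os2*, transcribed at the homeobox gene *Dlx6*, read -0.42, -0.49, -0.67 and -0.29 across WT livers and -1.18, -1.58, -1.17 and -0.80 across KO livers. Its difference came to -0.72 (SE 0.16, adjusted p = 0.119), and *Dlx6* and *Dlx5* themselves were not among the tested probes. *D430020J02Rik* read -2.28, -2.22, -2.44 and -2.14 across WT livers and -2.79, -2.91, -3.35 and -2.74 across KO livers, with a difference of -0.68 (SE 0.14, adjusted p = 0.101).

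*Snhg1*, a host gene whose introns hold snoRNAs, read -0.34, -0.78, -0.85 and -0.44 across WT livers and -1.16, -1.09, -1.38 and -1.39 across KO livers. It fell by 0.65 on the log2 scale (SE 0.14, adjusted p = 0.101). Of the genes on either side, both within 10 kb and neither called, *Slc3a2*, an amino acid transporter chain, differed by -0.10 (adjusted p = 0.719) and *Wdr74* by -0.04 (adjusted p = 0.902).

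Lower RNAs near background made up the rest. *Gm13629*, which overlaps the sodium channel gene *Scn9a*, was above background on 2 KO arrays and read -2.83, -2.70, -3.01 and -2.25 across WT livers and -4.46, -4.16, -3.75 and -3.48 across KO livers, a difference of -1.26 (SE 0.24, adjusted p = 0.0765). *Gm10536* was above background on 1 KO array and read -3.24, -3.27, -3.44 and -3.50 across WT livers and -4.67, -4.79, -4.43 and -3.79 across KO livers, a difference of -1.06 (SE 0.20, adjusted p = 0.0841). *A430088P11Rik* was above background on 3 KO arrays, with means of -2.84 and -3.69 and a difference of -0.85 (SE 0.19, adjusted p = 0.119). The unmatched NR_024078, well above background on 0 KO arrays, had measured means of -3.40 in WT and -4.26 in KO livers (limma adjusted p = 0.0546). With dim KO readings raised as for *1700030C10Rik*, it was 1.67-fold lower, again not a strict minimum. These 4 passed detection through WT livers alone, and with normexp their differences were -0.32, -0.14, -0.22 and -0.22, none of them called. The dimmest detected signals of KO replicates 1, 2 and 3 were -4.00, -4.14 and -4.24. Below them lay *Gm13629* in KO replicates 1 and 2, *Gm10536* in KO replicates 1, 2 and 3, and *A430088P11Rik* in KO replicate 3. The differences of these RNAs are therefore not exact.

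Taking for each RNA the smaller of its ratios to the log2 fold and adjusted p thresholds, *4931440P22Rik* and *Gm15318* were nearest to the threshold among called members, by fold. By adjusted p alone *1700030C10Rik* and *4933406I18Rik* were nearest. Just outside it lay *1700105P06Rik*, at 0.58 (SE 0.09, adjusted p = 0.0493), which missed the fold, and *1810014B01Rik*, at 0.57 (SE 0.17, adjusted p = 0.204), which missed both.

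**Figure D2:**
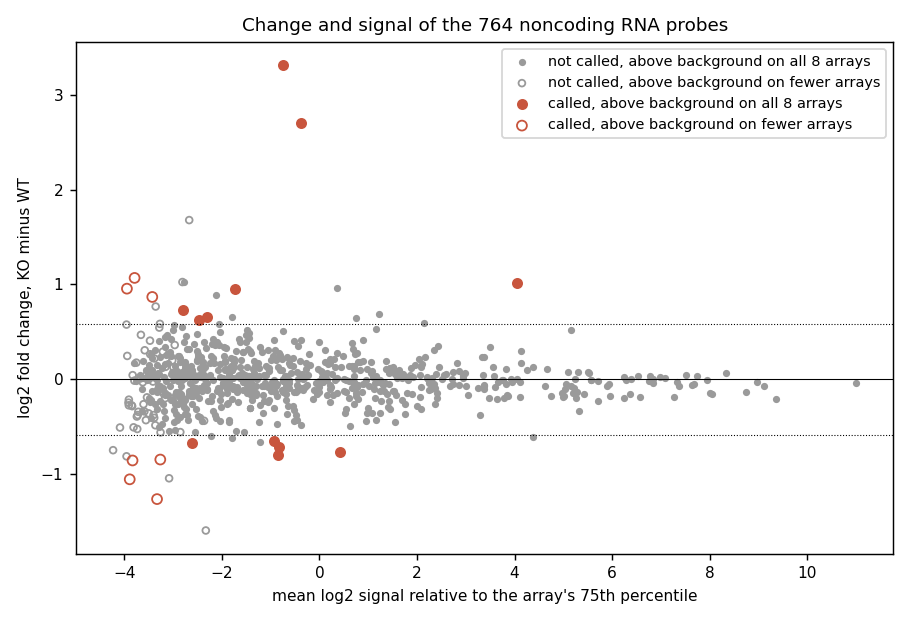
Log2 fold change, KO minus WT (y axis), against mean log2 signal with each array's 75th percentile at 0 (x axis) for the 764 probes, with called probes in red, open circles for probes above background on fewer than 8 arrays and dotted lines at a fold of 1.5. Of the 19 called probes 7 are open circles at the dim edge, and 1810008I18Rik is the called probe with the highest signal.

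Large fold changes did not always pass. Singled out after their values were seen, *Gm10804* read -2.58, -2.01, -2.52 and 0.98 across WT livers and -4.28, -1.55, -4.48 and -2.20 across KO livers, a difference of -1.60 (SE 0.95, adjusted p = 0.528), and *Platr22* differed by 1.68 (SE 0.71, adjusted p = 0.359). WT replicate 4 lay far above the other WT mice at the first. *Gm16023* read -3.01, -3.75, -3.28 and -3.15 across WT livers and 1.30, -3.46, -3.55 and -3.38 across KO livers, and *1600010M07Rik* -2.42, -2.37, -2.92 and -2.54 across WT livers and 1.10, -2.60, -2.69 and -2.51 across KO livers. KO replicate 1 lay far above the other KO mice at both of them.

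By RefSeq type, long noncoding RNAs held 538 probes and 18 of the 19 calls (3.35%), with a median log2 fold change of -0.01. Calls were 1.67% of all tested probes, 2.26% of the intergenic lincRNA interval probes and 3.29% of tested probes with XR_ accessions. The 7 calls that passed detection in 1 genotype alone were all of this type, except NR_024078. Transcribed pseudogenes held 129 probes, noncoding transcripts of coding genes 27, and neither held a call, with medians of 0.0037 and -0.0085. The 41 unmatched probes held 1 call. The 28 small and structural RNAs also held 0 calls at that fold, but 26 of the 28 log2 fold changes were below 0.

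**Figure D3:**
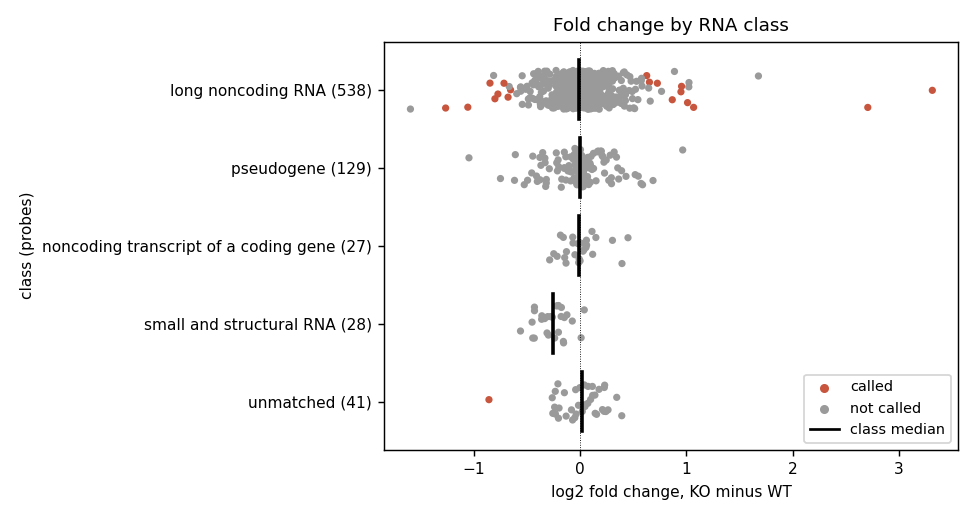
Log2 fold change, KO minus WT (x axis), of each probe by RNA class (y axis, with the number of probes), called probes in red and black bars at the class medians. The small and structural RNAs are centred at -0.25 and the other classes near 0; the single misc_RNA probe is not drawn.

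The small and structural RNAs had small differences below 0 through most of the class. Their median was -0.25, beside -0.03 over all tested probes, of which 16378 of 29068 were below 0, and the genotypes did not overlap at 10 of 28 (35.7%), beside 8.86% of all probes. All 28 were well above background on all 8 arrays. *Rnu2-10*, a U2 spliceosomal RNA, read 1.83, 1.76, 1.71 and 1.83 across WT livers and 1.33, 1.36, 1.43 and 1.20 across KO livers, a difference of -0.45 (SE 0.07, adjusted p = 0.0493). *Snora73a*, an H/ACA snoRNA, read 5.53, 5.45, 5.47 and 5.52 across WT livers and 5.17, 5.18, 5.18 and 5.11 across KO livers, a difference of -0.33 (SE 0.06, adjusted p = 0.065). Within each genotype both RNAs varied by little.

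Also at an adjusted p under 0.2, though short of the fold of 1.5, were *Snord17* at -0.36 (SE 0.07, adjusted p = 0.0733), *Snora74a* at -0.56 (SE 0.14, adjusted p = 0.143) and *Rprl2*, an RNase P RNA-like gene, at -0.44 (SE 0.11, adjusted p = 0.132). The signal recognition particle RNA *Rn7s1* differed by -0.20 (SE 0.08, adjusted p = 0.299) and *Rn7sk*, which holds back transcription elongation factor P-TEFb, by -0.31 (SE 0.15, adjusted p = 0.436). *Rpph1*, the RNase P RNA, differed by -0.36 (SE 0.12, adjusted p = 0.244) and *Rmrp*, the RNase MRP RNA, by -0.30 (adjusted p = 0.241). *Snord7* at 0.04 and *Rnu3b1* at 0.01 were the 2 above 0. The 3 U1 genes *Rnu1a1*, *Rnu1b1* and *Rnu1b6*, at -0.15 (adjusted p = 0.441), -0.18 (adjusted p = 0.393) and -0.18 (adjusted p = 0.37), are near-identical copies, as are members of the RNase P group, so their probes may read the same RNAs.

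Per mouse, the median deviation of the 28 RNAs from their own means was 0.17, 0.08, 0.06 and 0.17 in WT and -0.20, -0.12, -0.07 and -0.21 in KO livers, with no overlap. The spike-in control RNAs, added in the labelling and not made by the liver, were lower too: over 7 spike-in probes the median difference was -0.18 (range -0.21 to -0.14). Per mouse the spike-ins deviated by 0.10, 0.12, -0.01 and 0.13 in WT and -0.11, -0.04, -0.16 and -0.04 in KO livers. All values share this scale, and the part of the spike-in difference in this result, or in the higher and lower calls above, was not tested. Class membership was settled after these values had been seen, and *Slfn10-ps*, which RefSeq types as misc_RNA, was taken out at that point; with it, 27 of 29 were below 0.

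**Figure D4:**
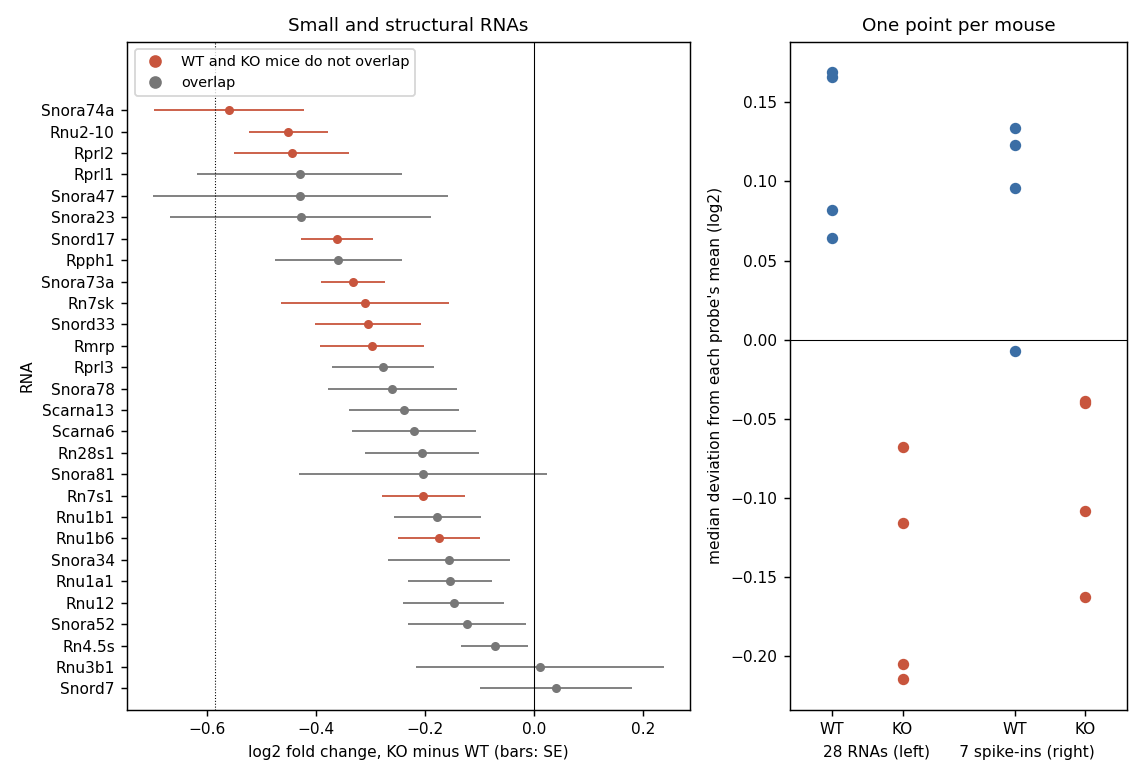
Left, log2 fold change, KO minus WT, of the 28 small and structural RNAs (points, bars for SE), red where WT and KO mice do not overlap and a dotted line at a 1.5-fold decrease; right, the per-mouse median deviation in log2 units of these RNAs and of 7 spike-in probes, WT in blue and KO in red. The RNAs lie at 0.06 to 0.17 in WT and -0.21 to -0.07 in KO livers, and the spike-ins are also lower in KO.

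Of 15 probes for 14 snoRNA host genes, 14 were below 0 and 1, *Snhg1*, was called (median -0.11), where 16378 of all 29068 tested probes were below 0. Per mouse, the median deviation of the host probes was 0.28, 0.00, -0.01 and 0.09 in WT and -0.05, -0.01, -0.10 and -0.13 in KO livers. WT replicate 1 stood above the other mice, and WT replicate 3 and KO replicate 2 were level. *Snhg12* read 1.25, 1.18, 1.01 and 1.29 across WT livers and 0.76, 0.98, 0.41 and 0.83 across KO livers, a difference of -0.44 (SE 0.13, adjusted p = 0.199) without overlap, and *Snhg5* differed by -0.43 (SE 0.14, adjusted p = 0.241). *Snhg8*, the brightest host, differed by -0.10 (SE 0.07, adjusted p = 0.6). The median difference of the spike-ins was -0.18, and its part in the values of this list was not tested.

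Other known noncoding RNAs gave no call. Of the nuclear and X-inactivation RNAs 12 had NR_ probes and 6 were members. *Firre*, the brightest, differed by 0.08 (SE 0.11, adjusted p = 0.786), and *Neat1*, the scaffold of paraspeckles, by 0.15 (SE 0.22, adjusted p = 0.823). The 7 probes of 4 imprinted RNAs had a median of -0.05. *Kcnq1ot1*, which silences genes of its own imprinted cluster, differed by -0.05 (SE 0.12, adjusted p = 0.896) at its brightest probe and between -0.08 and 0.14 over 4 probes. *Peg13* read 1.41, 1.19, 1.21 and 1.24 across WT livers and 0.88, 0.82, 0.81 and 1.10 across KO livers, a difference of -0.36 (SE 0.09, adjusted p = 0.149) without overlap, below the fold of 1.5. *H19* and *Xist* were on the array but did not pass the detection rule.

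Of 8 probes for microRNA hosts and related precursors 7 were below 0 and none was called, where 16378 of all 29068 tested probes were below 0. These probes were dim, with a median signal of -3.07, and 6 were well above background on all 8 arrays. *Mir22hg* differed by -0.07 (SE 0.24, adjusted p = 0.934) and *Mir99ahg* by -0.49 (SE 0.24, adjusted p = 0.436), and a second probe of it by -0.0034. *Dleu2*, the host of miR-15a and miR-16, differed by -0.23 (SE 0.06, adjusted p = 0.182), with mice apart but a small change. Among RNAs described in liver or metabolism, *0610005C13Rik* was the brightest and differed by -0.01 (SE 0.08, adjusted p = 0.986), *Pvt1* by -0.30 (SE 0.26, adjusted p = 0.668) and *Hnf4aos*, antisense to the hepatocyte factor *Hnf4a*, by 0.12 (SE 0.27, adjusted p = 0.884). The pseudogenes of cytochrome P450 and related genes held 5 probes and 0 calls: *Cyp2d37-ps* differed by 0.07 (SE 0.15, adjusted p = 0.879) and *Cyp2c53-ps* by 0.36 (SE 0.24, adjusted p = 0.575). The list of 8 snoRNA, scaRNA and structural RNA genes had all 8 below 0 and 0 called, with a median of -0.24. It overlaps the 28 small and structural RNAs above, *Rn28s1* and *Rpph1* among them, and is not a separate result. Over all 29068 tested probes 16378 were below 0, and the part of the spike-in difference in this list was not tested.

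Some noncoding RNAs differed more between mice than between genotypes. *Serpina4-ps1*, a serpin pseudogene, read 4.28, 1.78, 1.43 and 0.24 across WT livers and 3.37, 2.52, 1.16 and 1.53 across KO livers. The WT mice alone ran from the lowest to the highest of all 8 values, and the genotype difference was 0.21 (SE 0.84, adjusted p = 0.938). *B930025P03Rik* read -2.19, -1.65, -0.06 and -0.15 across WT livers and -1.43, -0.36, -1.36 and -1.24 across KO livers, a difference of -0.08 (SE 0.50, adjusted p = 0.962). Of the members above background on all 8 arrays, these and *1810053B23Rik* had the 3 largest SDs among WT mice, at 1.70, 1.07 and 1.28 in that order. *Gm10804*, above background on 2 KO arrays, had a WT SD of 1.69.

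For 520 probes the nearest coding gene was also tested, and 4 of these genes (0.769%) were called, *Fmn1*, *Fabp2*, *Fgfr1* and *Rpia*, beside 1.58% of all tested NM_ probes. *Fabp2*, an intestinal-type fatty acid binding protein gene, was higher by 0.99 (SE 0.12, adjusted p = 0.0152), whereas *4933405D12Rik*, overlapping it on the opposite strand, differed by 0.04. *Fgfr1* differed by -1.20 (SE 0.15, adjusted p = 0.021) and *Gm16159*, on the same strand within its span, by -0.20. Across the 520 pairs, which share the same 8 arrays and are not independent, Spearman's rho of the fold changes was 0.11.

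Of 41 genes with more than 1 member probe (92 probes), 29 had all probes on the same side of 0. *1810053B23Rik* was the only gene with 2 called probes.

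The calls differed in how many refits they held. Both probes of *1810053B23Rik*, *1810008I18Rik* and *3110045C21Rik* were called in all 17 refits with another processing or 1 array left out. *B130034C11Rik*, *B230312C02Rik*, NR_024078 and *Gm13629* were lost only with normexp background correction of the median spot signal, though the last pair could not be tested among probes above background on all 8 arrays. The calls of the other 11 were lost in 2 or more refits.

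**Figure D5:**
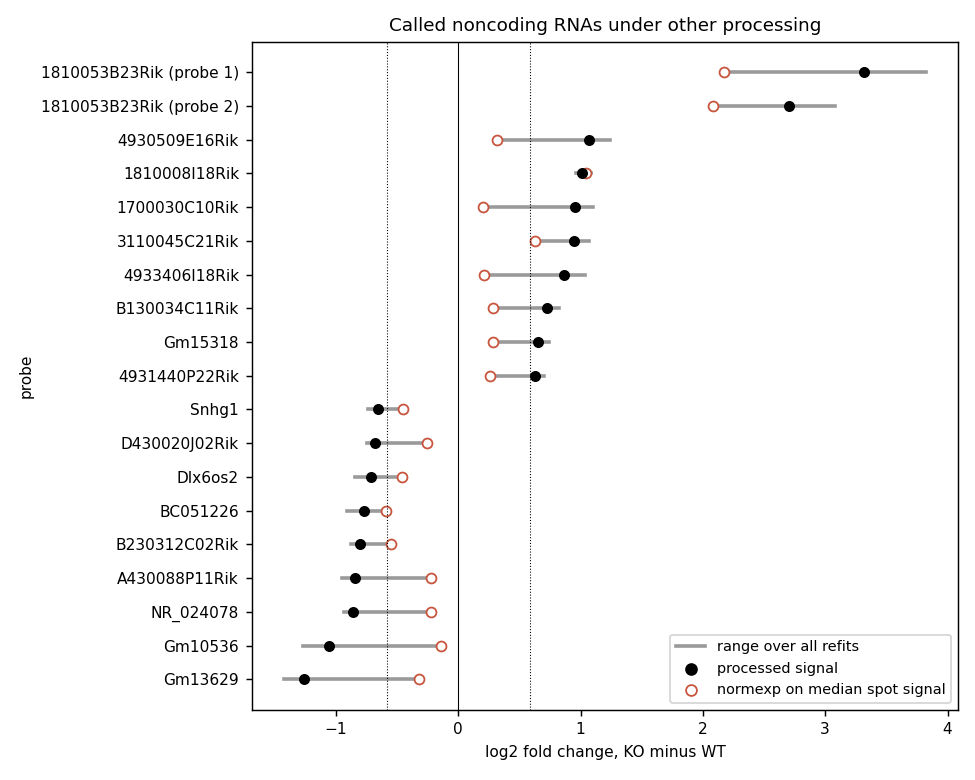
Log2 fold change, KO minus WT (x axis), of each called probe from the processed signal (black), from normexp background correction of the median spot signal (open red) and its range over all refits (grey), with dotted lines at a fold of 1.5. Normexp used an offset of 50, which shrinks the differences of dim probes. Dim probes such as Gm10536 move from -1.06 to -0.14 with normexp, whereas 1810008I18Rik stays at 1.01 to 1.05.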

How the data were processed

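The measurements were 8 one-color arrays, 1 per mouse. The deposited values are Agilent Feature Extraction 10.7.1.1 files, per the file headers, whose processed signal is a background-corrected spot intensity made by the authors' scanner software. The authors also deposited a table of log2 values. It differed by a constant under 0.01 on each array from the values computed here with outlier spots kept. Here control spots and outlier spots were left out, spots of a probe were averaged on the log2 scale, and the 75th percentile of the array was subtracted, taken over probes rather than spots after comparison with the deposited table. Array values are limited in precision by the number of arrays, not by a read depth.

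KO and WT were compared with limma 3.58.1 in R 4.3.3 (lmFit and eBayes, no covariates) over the 29068 probes that met the detection rule, with Benjamini-Hochberg adjustment. Calls used 1.5-fold and an adjusted p of 0.2; the study's volcano plot used the same numbers for fold and p, without saying that p was adjusted. The exact two-sided permutation test over 70 assignments of the mice cannot go below p = 0.0286. Every called probe reached it, as any probe without overlap does (8.86% of all tested), so it adds nothing to the calls. P-values measure the spread between these mice. The fit was tested on simulated data in which 200 probes changed by 1.5 on the log2 scale. Most called differences were smaller, so that test does not cover them.

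Probes were named through the RefSeq gene table by accession (32989 of 56605 probes matched). Distances to neighbours come from the same table, and the promoters from RefSeq GRCm38.p6. Named were every called member, the brightest member and the one with the largest change of each list, the 5 brightest, the 3 with the largest SD in WT of those above background on all 8 arrays, and those nearest the call and detection thresholds; other members named were chosen after their values were seen. The members and lists were chosen with earlier results of these data known. Alternatives changed the background correction, scaling, value table, detection filter, outlier spots, variance model, replicate block, thresholds, and left out each array.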

Additional observations from a re-analysis of the deposited data

Results flagged for a closer look

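In 7 of 131 groups of 4 mice examined for the named RNAs, 1 mouse stood far from the other 3 of its genotype. Chance flags about 1 in 20 groups, and over all members 5.96% of 1527 groups had such a mouse.

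*B130034C11Rik* read -2.86 in WT replicate 3 and -3.29 to -3.22 in the other WT mice, so that this mouse was nearest to the KO mice. *1700105P06Rik* read -2.17 in WT replicate 4, against -2.43 to -2.40. *1810014B01Rik* read -2.14 in KO replicate 4, against -2.93 to -2.82, and this mouse set much of its difference.

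Another 3 RNAs were singled out for their fold changes. *Gm10804* read 0.98 in WT replicate 4, against -2.58 to -2.01. KO replicate 1 read 1.30 at *Gm16023*, against -3.55 to -3.38, and 1.10 at *1600010M07Rik*, against -2.69 to -2.51. *Gm16159*, named for its place beside *Fgfr1*, read -3.84 in KO replicate 2, against -3.13 to -2.99.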

How the results depend on the processing

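The 10 higher and 9 lower calls became 5 and 1 with normexp, 5 and 3 with no filter on dim probes, and 7 and 5 among probes above background on all 8 arrays, where fewer members were tested. At an adjusted p under 0.05 they were 4 and 1, with no minimum fold 18 and 28, at an unadjusted p under 0.2 17 and 16, and at a fold over 2 they were 4 and 2. Leaving out 1 array gave 6 to 14 higher and 5 to 12 lower calls. The fewest higher calls, 6, came without WT replicate 3 or KO replicate 2, and the fewest lower calls, 5, without WT replicate 1. *Snhg1* was no longer called without WT replicate 1. Quantile or median scaling, the deposited table, kept outlier spots and the trend and robust options each left all 19 calls in place. No named RNA that was called turned its direction in any refit. The offset of 50 in normexp shrinks the differences of dim probes, so dim and bright calls are not compared on equal terms there. The cause of the lost calls was not tested.

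Replicate numbers are shared between the genotypes, but same-numbered mice had correlations of 0.33, -0.11, 0.10 and 0.32 in their deviations, so they were not taken as pairs. With the replicate block there were 10 higher and 11 lower calls, 9 and 9 of them shared with the fit without it, *1700030C10Rik* being the call lost (adjusted p = 0.237), and 3 of 4 numbers matched best with their own.

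The median of the small and structural RNAs, examined after the data had been seen, was -0.25 and became -0.16 with normexp. It was -0.28 to -0.21 with 1 array left out. The number of these RNAs at a limma adjusted p under 0.2 was 5. It became 1 with no filter on dim probes and 3 to 7 with 1 array left out. *Snora74a* moved from -0.56 to -0.18 with normexp (limma adjusted p = 0.454).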
